A study of Sus scrofa with 26 samples.

Results

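The proteasome subunits were described in the subcutaneous adipose tissue (SCAT) of growing pigs. Their members were the genes whose symbol starts with PSMA, PSMB, PSMC, PSMD or PSME followed by a digit, found by the gene name, the accessions or the description that the array gives for each probe. The array held probes for 42 such genes, out of 11999 named genes, and they fell into 15 subunits of the core particle, 22 regulatory subunits and 5 genes of the immunoproteasome. Of these, 41 genes were tested with 123 of their 130 probes, and PSMD5, whose probe was well above background on 6 of 26 arrays, was the member not tested. PSMC3IP, a recombination factor whose 2 probes share the letters of the symbol, is not a subunit and was set apart.

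Each of the 26 arrays held the RNA of 1 castrated male pig of the Creole breed, the Large White (LW) breed or their cross (F1). The pigs at thermoneutrality (TN, 24 °C) were 3 Creole, 4 F1 and 4 LW, and those under heat stress (HS) were 5 of each breed. For HS the labels state 30 °C and the design of the series states 32 °C over 5 days. The samples are back fat, a mixed tissue, in which fewer cells of a type and less RNA per cell cannot be told apart. Pigs of the TN groups were killed first, ahead of the warm period, so that temperature and day of slaughter cannot be told apart either. Littermates and pen mates took part in the trial, and the labels used here do not tie arrays to litters or pens, so the p-values treat the pigs as independent.

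The proteasome is the large protease that degrades proteins tagged with ubiquitin. Its barrel-shaped core is built of rings of alpha subunits (PSMA genes) and beta subunits (PSMB genes). The sites that cut proteins lie on PSMB6, PSMB7 and PSMB5, with caspase-like, trypsin-like and chymotrypsin-like activity, respectively. A regulatory cap of ATPases (PSMC genes) and other subunits (PSMD genes) recognises, unfolds and feeds in the substrate. In immune cells, and in other cells exposed to interferon gamma, PSMB9, PSMB10 and PSMB8 can take the places of PSMB6, PSMB7 and PSMB5, and the activator built of PSME1 and PSME2 can bind the core. This form is known for cutting peptides for presentation on MHC class I.

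The probes are oligonucleotides of 60 bases, and those printed here let the main comparisons be traced to their targets. For PSMB8, PSMD14 and PSMB10 the probe shown is not the brightest one, whose level is given below, and its own changes in HS were -0.09, -0.52 and 0.15, respectively, on the log2 scale. The first pair belongs to PSMB5 and to PSMB8, its inducible counterpart. The capitals mark the 17 bases, of 23 aligned without gaps, that are identical in both.
PSMB5: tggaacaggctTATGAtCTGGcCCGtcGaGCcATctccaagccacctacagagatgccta
PSMB8: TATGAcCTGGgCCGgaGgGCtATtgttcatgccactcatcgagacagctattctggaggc
The longest run of identical bases between probes of different subunits was 12 bases. Probes were compared with probes only, so the binding of a probe to the transcript of a paralogous gene was not checked. The next probes are those of the subunit with the largest fall in HS, PSMD14, and of PSMB7 and PSMB10, another pair of a standard and an inducible catalytic subunit, in lower case because no part is singled out.
PSMD14: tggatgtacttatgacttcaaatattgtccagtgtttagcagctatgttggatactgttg
PSMB7: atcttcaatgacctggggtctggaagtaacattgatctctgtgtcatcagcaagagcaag
PSMB10: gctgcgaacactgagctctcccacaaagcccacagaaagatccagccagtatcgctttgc
Several genes had several probes, up to 13 for PSMB4, of which 12 were tested, and the 130 probes covered 116 separate stretches once probes sharing at least 20 bases were joined. A gene is given below by its brightest tested probe, and all 41 of these were well above background on all 26 arrays.

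Of the core and regulatory subunits, 18 of 36 genes fell in HS and 0 rose. Of the 5 immunoproteasome genes 0 passed the threshold, with 1 at an unadjusted p-value under 0.05, and the difference between the classes was not tested. For the change with temperature, 26.9% of all tested probes had an unadjusted p-value under 0.05. Levels are log2 values of the quantile-normalised intensity, changes are HS minus TN corrected for breed, and a gene is called when the adjusted p-value of limma (Benjamini-Hochberg over all tested probes) is under 0.05. Among all named genes by their brightest probe, 12.6% were called, 7.65% as lower and 4.91% as higher. The median change was -0.18 for the core, -0.15 for the regulatory subunits and -0.07 for the immunoproteasome genes, against 0.00 for all tested probes. With the 75th percentile scaling the medians of the core and regulatory subunits were -0.29 and -0.23, and with a red cell score as a covariate 4 genes were called in place of 18.

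**Figure D1:**
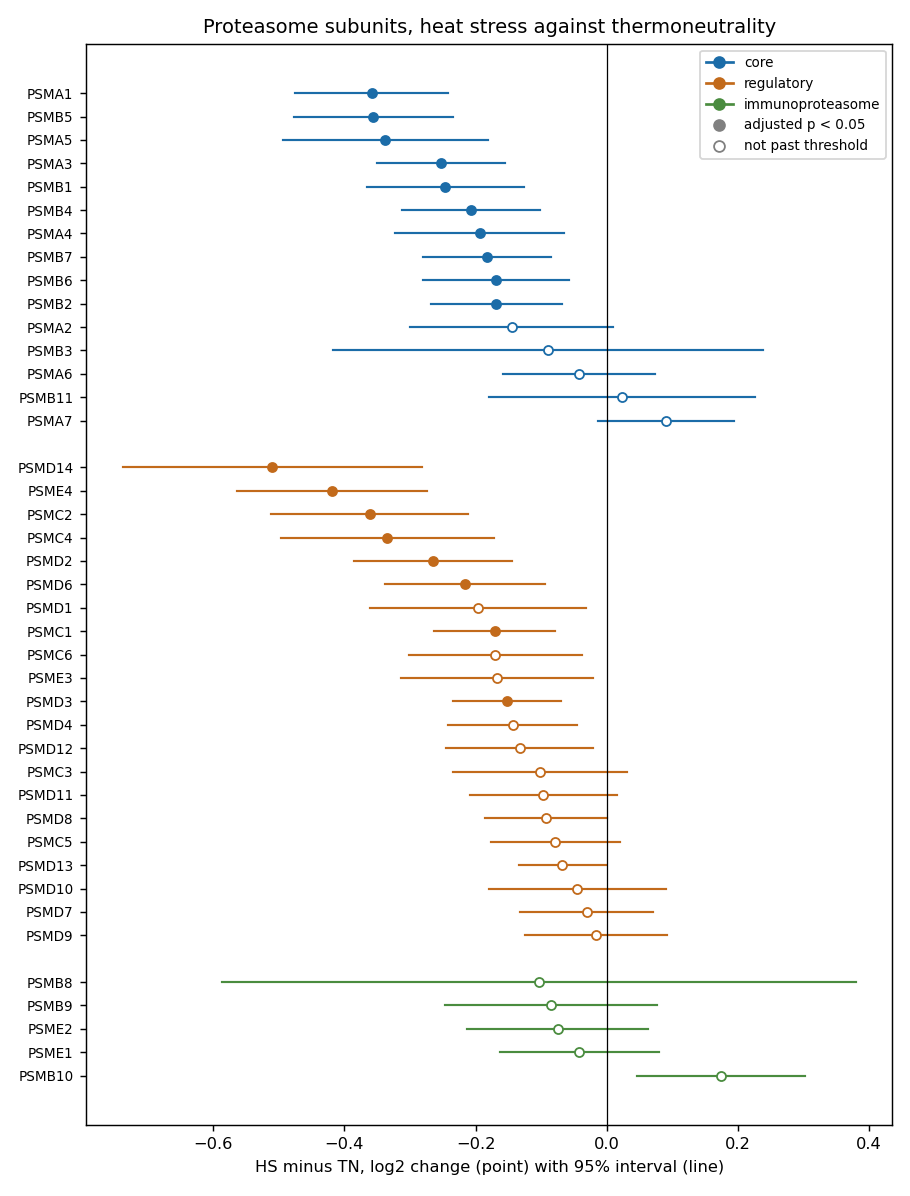
Change of each subunit gene between HS and TN (horizontal axis, log2 change corrected for breed, with 95% intervals as lines), with the genes of each class in order of their change (vertical axis). Filled points passed the adjusted p-value threshold of 0.05, and all 18 of them lie left of 0, between -0.51 for PSMD14 and -0.15 for PSMD3.

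Among the core subunits, 10 of 15 genes were called, all lower. They were 4 of the 7 alpha subunits tested (PSMA1, PSMA3, PSMA4 and PSMA5) and 6 of the 8 beta subunits (PSMB1, PSMB2, PSMB4, PSMB5, PSMB6 and PSMB7), including all 3 standard catalytic subunits. The calls of PSMA4 and PSMB6 were the least stable, being lost with 17 and 13, respectively, of the 26 single arrays left out and both with the slide as a fixed block. PSMA2, PSMA6, PSMA7, PSMB3 and PSMB11 did not pass, with changes from -0.14 to 0.09. PSMB11 is the catalytic subunit known from the thymus, and PSMA7 and PSMB11 were the only core genes with a positive change. Both read low, with mean levels of 6.47 (PSMA7) and 6.45 (PSMB11), against 9.27 for PSMA2, the next lowest core gene. PSMA7 was read by 1 probe, named through its description alone.

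PSMA1, an alpha subunit of the core (chromosome 2, 44740102 to 44755296 in Sscrofa11.1), ranged over the 11 TN arrays from 11.83 to 12.15 with a median of 11.995, and over the 15 HS arrays from 11.20 to 11.88 with a median of 11.62. The groups overlapped little, since 11 HS arrays lay below every TN array and all 15 lay below the TN mean of their own breed. The change was -0.36 ± 0.06 (SE), or 0.780 times the TN level, with an adjusted p-value of 0.000377.

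PSMB5 carries the chymotrypsin-like site of the core (chromosome 7, 76014576 to 76021922). Its level ran from 11.71 to 12.37 in TN (median 11.98) and from 11.32 to 11.86 in HS (median 11.62), with 15 of 15 HS arrays below the TN mean of their breed. The change was -0.36 ± 0.06 (SE, adjusted p = 0.000555). Its 4 other probes also fell, and the 5 changes lay between -0.43 and -0.36, although 3 of these probes carry the same 60 bases.

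PSMA5, another alpha subunit, ran from 12.15 to 12.53 in TN (median 12.28) and from 11.53 to 12.35 in HS (median 11.95). The lowest HS value belonged to a Creole pig. The change was -0.34 ± 0.08 (SE, adjusted p = 0.00518), and 14 of 15 HS arrays lay below the TN mean of their breed. The 12 tested probes of PSMB4 and the 6 of PSMA3 were each called as lower, whereas of the 5 tested probes of PSMA6 1 was.

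Of the 21 regulatory genes tested, 8 were called and all 8 were lower, while the other 13 had negative changes that did not pass. The called genes were 3 of 6 ATPases (PSMC1, PSMC2 and PSMC4), 4 of 13 PSMD subunits (PSMD2, PSMD3, PSMD6 and PSMD14) and PSME4, the large activator PA200 known from the nucleus. PSMD4, a receptor for ubiquitin chains, missed the threshold narrowly (-0.14, adjusted p = 0.0502).

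PSMD14 is the deubiquitinase of the cap, which removes the ubiquitin chain before the substrate enters the core (chromosome 15, 68107379 to 68208884). Its TN levels were 11.72, 11.76 and 11.97 in Creole, 11.13, 11.21, 11.57 and 11.95 in F1, and 11.32, 11.50, 11.52 and 11.69 in LW. Under HS they were 10.63, 11.32, 11.40, 11.40 and 11.61 in Creole, 10.80, 11.02, 11.05, 11.55 and 11.59 in F1, and 10.57, 10.79, 10.81, 10.85 and 10.86 in LW. The temperatures did not overlap within Creole or within LW, whereas in F1 they did.
The change of PSMD14 was -0.51 ± 0.11 (SE), or 0.702 times, with an adjusted p-value of 0.00400, and its other 2 probes, 1 of which carries the same 60 bases, gave values from -0.52 to -0.51.

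PSME4 (chromosome 3, 87231510 to 87337709) lay between 9.81 and 10.09 in TN (median 9.91) and between 9.21 and 9.93 in HS (median 9.45). In 12 of 15 HS pigs it was below every TN pig. The change was -0.42 ± 0.07 (SE, adjusted p = 0.000609), while its second, dimmer probe showed -0.02. The result for PSME4 therefore rests on 1 of its 2 probes.

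PSMC2 and PSMC4 are ATPases of the ring that unfolds substrates. PSMC2 had levels from 11.32 to 12.13 in TN (median 11.73) and from 10.93 to 11.60 in HS (median 11.40), and 15 of 15 HS arrays lay below the TN mean of their breed. Its change was -0.36 ± 0.07 (SE, adjusted p = 0.00224), with -0.09 for its dimmer probe, which was not called. PSMC4, read by 1 probe, had levels from 11.05 to 11.70 in TN (median 11.33) and from 10.61 to 11.44 in HS (median 10.91), a change of -0.33 ± 0.08 (SE, adjusted p = 0.00707).

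PSMD2, a large scaffold of the cap like PSMD1, had levels from 13.68 to 14.20 in TN (median 13.97) and from 13.42 to 14.01 in HS (median 13.71). All 15 HS arrays lay below the TN mean of their breed, and the change was -0.26 ± 0.06 (SE, adjusted p = 0.00466). PSMD1 itself showed -0.20 with its brightest probe (adjusted p = 0.111), but 5 of its 7 other probes were called as lower. The same held for PSMC6, another ATPase, whose brightest probe missed (-0.17, adjusted p = 0.0834) while 5 of 8 others were called.

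Over all probes, 66 of 107 core and regulatory probes tested were called as lower (61.7%), against 7.02% of all tested probes, and 0 were called as higher. Of the 16 immunoproteasome probes 0 were called, and 12 had negative changes. Probes of a gene share their target, so these shares are not counts of independent measurements.

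The 5 genes of the immunoproteasome had changes from -0.10 to 0.17. PSMB9, the counterpart of PSMB6 (chromosome 7, 25072133 to 25077508), had levels from 11.97 to 12.65 in TN (median 12.33) and from 12.04 to 12.57 in HS (median 12.26). These ranges overlapped almost completely. The change was -0.08, with a 95% interval from -0.25 to 0.08 and an adjusted p-value of 0.525.

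PSME1 and PSME2, which form the activator PA28 and lie next to each other on chromosome 7 (75161830 to 75164531 and 75154570 to 75157871), gave -0.04 (95% interval -0.16 to 0.08, adjusted p = 0.700) and -0.07 (95% interval -0.21 to 0.06, adjusted p = 0.512). PSME1 ran from 12.18 to 12.64 in TN (median 12.36) and from 11.93 to 12.53 in HS (median 12.33). PSME2 ran from 12.69 to 13.13 in TN (median 12.98) and from 12.55 to 13.20 in HS (median 12.86). For both genes the temperatures overlapped over most of the range.

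PSMB10, the counterpart of PSMB7 (chromosome 6, 28544910 to 28547609), was the only gene of the 5 with a positive change. Its level ran from 12.79 to 13.20 in TN (median 13.00) and from 12.84 to 13.42 in HS (median 13.15), so the groups overlapped. The change was 0.17 ± 0.06 (SE), with 13 of 15 HS arrays above the TN mean of their breed, and it did not pass (adjusted p = 0.0665). It passed, as higher, with array weights (adjusted p = 0.0264) and without F1 TN replicate 3 (0.0392) or Creole HS replicate 3 (0.0195). Its 3 other probes had changes of the same sign, from 0.09 to 0.15.

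PSMB8, the counterpart of PSMB5 (chromosome 7, 25058456 to 25061666), varied most from pig to pig. Its within-group standard deviation was 0.64, the largest of the 41 genes, whose median was 0.15. The TN levels were 10.14, 11.28 and 11.56 in Creole, 10.82, 11.01, 11.18 and 11.22 in F1, and 9.88, 10.06, 10.30 and 10.89 in LW. Under HS they were 9.73, 9.73, 9.95, 10.86 and 11.89 in Creole, 10.13, 11.08, 11.09, 11.11 and 11.69 in F1, and 10.04, 10.04, 10.07, 11.13 and 11.23 in LW.
The values left a gap of 0.52 in which no array lay, from 10.30 to 10.82, and the next widest gap was 0.28. Below the gap lay 11 arrays, namely 4 of 8 Creole, 1 of 9 F1 and 6 of 9 LW arrays, or 4 of 11 TN and 7 of 15 HS arrays. All 3 tested probes of PSMB8 placed the same 11 arrays lowest, and their levels correlated across the 26 arrays with r of at least 0.989, a description of probes that share libraries and target, and of which 2 share 37 bases. The pigs' own sequences under these probes were not analysed here, so a level of PSMB8 is the brightness of its probes and was not checked as an amount of RNA. The gap was noticed in these values and was not tested. The change with temperature was -0.10, with a 95% interval from -0.59 to 0.38 (adjusted p = 0.821).

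**Figure D2:**
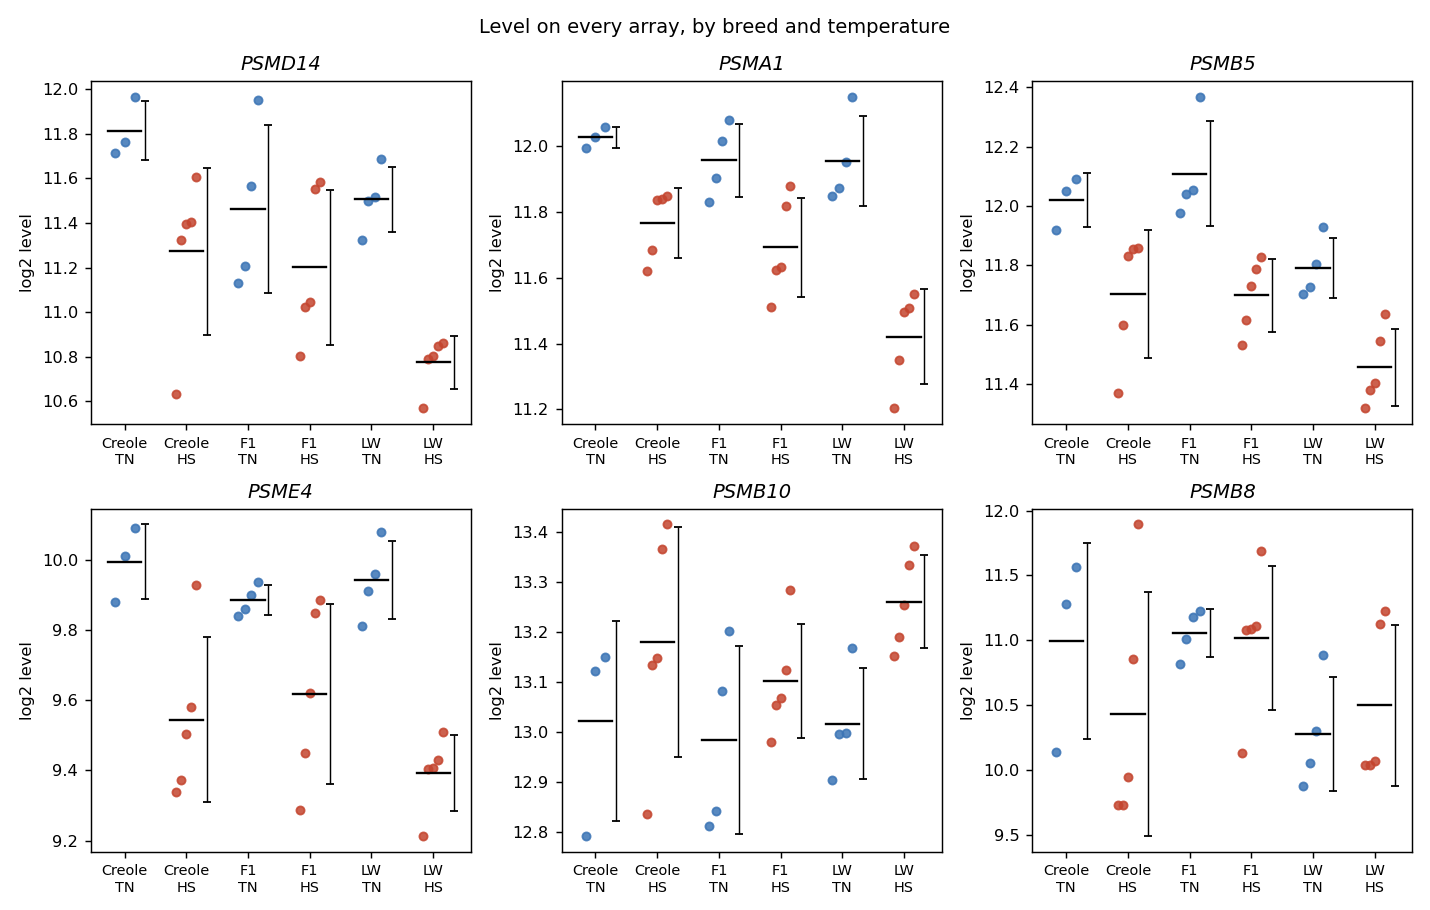
Log2 level (vertical axis) of 6 subunit genes on every array in the 6 groups of breed and temperature (horizontal axis; points spread sideways for visibility; horizontal lines are means and vertical bars standard deviations). PSMD14, PSMA1, PSMB5 and PSME4 have lower means under HS in every breed, PSMB10 has higher ones, and PSMB8 shows the gap between 10.30 and 10.82.

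Levels of PSMB9, PSMB10, PSME1 and PSME2 were also set against each other from pig to pig, after their values were seen and therefore as a description, with no test. PSMB8, whose values fell into separate ranges, was not part of these pairs. With the group means removed, Pearson's r of the 6 pairs over the 26 pigs ran from 0.543 (PSMB9 and PSME1) to 0.789 (PSMB9 and PSME2), and Spearman's rho from 0.597 to 0.863. Without the 2 pigs farthest from the median, r ran from 0.50 to 0.734, and with the slide removed as well, from 0.459 to 0.748. An r of at least 0.543 was also seen for 18.4% of the 630 pairs among core and regulatory genes, whose median r was 0.227, and for 9.03% of the 144 pairs of 1 of these 4 genes with a core or regulatory gene. The pairs share the arrays and their normalisation, and a slide held 4 to 7 arrays, too few in most for a correlation within it.

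The catalytic subunits were compared at the level of RNA, so their exchange in the particle was not measured. Within each array, the log2 level of the standard gene was subtracted from that of the inducible one. This difference depends on the brightness of both probes, so only its change between temperatures was read. The 3 pairs were examined with the changes of their members known, so their values are a description, with no test.

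The difference of PSMB10 and PSMB7 ran from -0.60 to -0.11 in TN (median -0.43) and from -0.31 to 0.35 in HS (median -0.05). Corrected for breed, HS minus TN was 0.36, made up of the changes of both genes given separately, and the difference was above the TN mean of the breed in 15 of 15 HS arrays. Each breed showed this sign (Creole 0.28, F1 0.25, LW 0.53), as did all 12 combinations of the probes of both genes (0.27 to 0.41). PSMB7, which carries the trypsin-like site, itself fell by 0.18 on the log2 scale (adjusted p = 0.0129).

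The difference of PSMB8 and PSMB5 had an HS minus TN value of 0.25, with -0.24 in Creole, 0.37 in F1 and 0.55 in LW. That of PSMB9 and PSMB6 had one of 0.08, with 10 of 15 HS arrays above the TN mean of their breed. In both pairs the temperatures overlapped widely, and PSMB8 with its gap left the first with a range from -2.13 to 0.30 in HS.

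**Figure D3:**
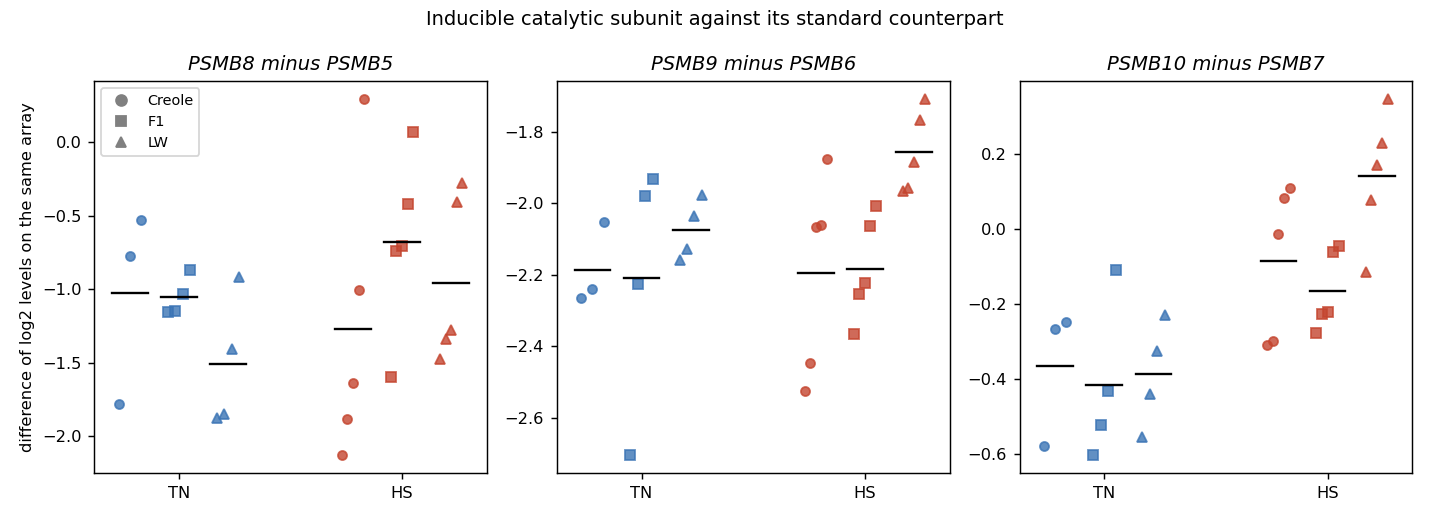
Log2 level of the inducible catalytic subunit minus that of its standard counterpart on the same array (vertical axis), at TN and HS (horizontal axis), with a marker shape for each breed and lines at the group means. For PSMB10 minus PSMB7 the HS median is -0.05 against -0.43 in TN, and the other pairs overlap widely.

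In each breed taken alone, most subunits had negative changes that did not pass the threshold. Negative changes were seen for 35 of 41 genes in Creole, 34 in F1 and 35 in LW, against 51.7%, 52.7% and 48.7% of all named genes. Negative changes in all 3 breeds were seen for 11 of 15 core genes (73.3%) and 15 of 21 regulatory genes (71.4%), against 23.6% of all named genes. Of the 5 immunoproteasome genes this held for PSME2 alone, which was singled out after its values were seen.

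In LW, 6 genes were called as lower, namely PSMA1, PSMA3, PSMB1, PSMD3, PSMD14 and PSME4 (14.6% of the 41), against 1.40% of all named genes in that breed. PSMA1 had levels of 11.85, 11.87, 11.95 and 12.15 in TN and of 11.20, 11.35, 11.50, 11.51 and 11.55 in HS, without overlap, and changed by -0.53 ± 0.09 (SE, adjusted p = 0.00558). PSME4 changed by -0.55 (adjusted p = 0.0209) and PSMD3, a scaffold of the lid, by -0.27 (adjusted p = 0.0265), likewise without overlap. The other probe of PSMD3 gave -0.05 in LW (adjusted p = 0.836) and was not called over all breeds, so the result for PSMD3 rests on 1 of its 2 probes. The count of 6 fell to 1 when LW TN replicate 2 or 3 or LW HS replicate 2 was left out, and rose to 12 without Creole HS replicate 5. With the slide as a fixed block none of these 6 genes was called in LW, and PSMB7 was called instead. All 10 skeletal muscle markers had positive changes in LW (median 1.76, 0 called, 5 at an unadjusted p-value under 0.05), and their score ran from -2.12 to 0.23 in LW TN and from -0.60 to 1.62 in LW HS. All 8 fibroblast markers also had positive changes there (median 0.32, 0 called, 2 unadjusted). An unadjusted p-value under 0.05 was seen in LW for 16.7% of all tested probes. The part of the muscle and fibroblast markers in the LW values was not tested.

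In F1, PSMC2 was the only gene called (-0.52, adjusted p = 0.0451), against 0.426% of all named genes. Its F1 levels were 11.70, 11.77, 11.88 and 12.13 in TN and 11.20, 11.31, 11.36, 11.36 and 11.51 in HS. The call was lost with 16 of the 26 single arrays left out, and with the slide as a fixed block, without the filter and with the mean over probes. In Creole 0 genes were called by limma, against 0.0775% of all named genes, and 10 of 41 had an unadjusted p-value under 0.05, against 11.1% of all tested probes. The smallest p-value there belonged to PSME4 (-0.45, adjusted p = 0.181). In F1, 3 of 9 proliferation genes (BUB1, CCNB1 and CDK1) and CIDEA of the 8 adipocyte markers were called as lower. In Creole 0 of these markers were called, but 8 of 9 proliferation genes (median -0.90), 7 of 10 macrophage markers (median 0.58) and 5 of 8 fibroblast markers (median 0.41) had an unadjusted p-value under 0.05. The part of these markers in the values of the subunits was not tested.

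The difference in response between breeds was tested by the interaction. By limma it called 0 of the 41 genes, with 0 at an unadjusted p-value under 0.05 (against 5.23% of all tested probes), and 0.0% of all named genes. PSMD3 had the smallest p-value (adjusted p = 0.897). Calls in LW and not in Creole are therefore not shown to differ between these breeds.

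**Figure D4:**
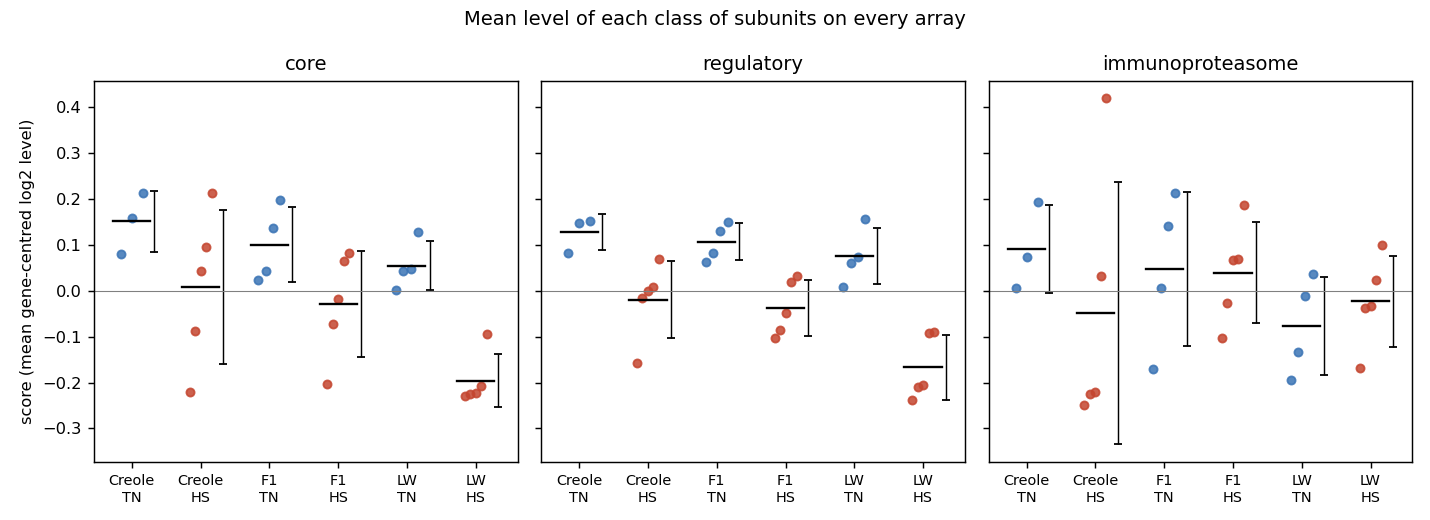
Score of each class of subunits on every array (vertical axis, log2 levels centred on each gene's own mean across arrays, then averaged over the class) by breed and temperature (horizontal axis; horizontal lines are means and vertical bars standard deviations). Core scores run from 0.00 to 0.21 in TN and from -0.23 to 0.21 in HS, and regulatory scores from 0.01 to 0.16 and from -0.24 to 0.07. In every class the ranges of the temperatures overlap.

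Core and regulatory scores lay on the same side of their means on 24 of 26 arrays, and core and immunoproteasome scores on 16 of 26, as a description of scores that share the arrays. After centring on the breed, the core score was lower in HS than in TN on all 5 slides, by 0.02 to 0.30, and the regulatory score on all 5, by 0.11 to 0.24. A slide held only 2 to 4 HS arrays and 1 to 3 TN arrays, with 1 TN array on slide 1. The immunoproteasome score was lower on 3 slides and higher on 2.

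Breeds also differed in the level of some subunits. For LW minus Creole, corrected for temperature, 11 of 41 genes were called (26.8%), 10 lower in LW and 1 higher, against 15.3% of all named genes, 8.6% as lower and 6.68% as higher. They were 5 core genes (PSMA1, PSMA3, PSMB3, PSMB5 and PSMB6) and 6 regulatory genes (PSMC1, PSMD2, PSMD8, PSMD9, PSMD12 and PSMD14). The calls of PSMD8, PSMA1 and PSMB5 were lost with 12, 5 and 4, respectively, of the 26 single arrays left out. With the slide as a fixed block PSMD8 and PSMB5 were not called, nor was PSMD8 without the filter or PSMB5 with the mean over probes. For none of the 5 immunoproteasome genes was the difference called, nor was it at an unadjusted p-value under 0.05. Of all tested probes 29% had an unadjusted p-value under 0.05 for this difference.

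Markers of cell types also differed between LW and Creole. All 8 fibroblast markers had positive differences (median 0.37), of which COL1A1, COL1A2, DCN and DPT were called, and their score ran from -0.21 to 0.60 over the LW arrays and from -0.95 to 0.22 over the Creole arrays. Of 8 adipocyte markers 7 had negative differences, with LEP, which encodes leptin (-1.23), and CIDEA (-0.31) called. All 10 skeletal muscle markers had negative differences (median -0.92), 0 of them called and 1 at an unadjusted p-value under 0.05, against 29% of all tested probes. Of the other marker lists, 1 of 7 endothelial and 1 of 5 B cell markers were called as higher, and 0 were called among macrophage, T cell, NK cell, red cell, keratinocyte and proliferation markers. The part of these cell types in the breed differences of the subunits was not tested.

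PSMB6, the subunit with the caspase-like site (chromosome 12, 52096009 to 52098164), had levels from 14.04 to 14.42 in LW (median 14.22), from 14.10 to 14.78 in Creole (median 14.58) and from 14.27 to 14.67 in F1 (median 14.46). LW was the lowest breed, and all 9 LW arrays were below the Creole median. The difference was -0.33 ± 0.07 (SE, adjusted p = 0.00239), and its 3 other probes were called in the same direction.

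PSMC1, an ATPase (chromosome 7, 112027904 to 112041360), had levels from 14.14 to 14.58 in LW (median 14.42), from 14.43 to 14.86 in Creole (median 14.64) and from 14.28 to 14.62 in F1 (median 14.45). The difference was -0.28 ± 0.05 (SE, adjusted p = 0.00198), but 0 of its 3 other probes were called. The mean over its 4 probes gave -0.14 (adjusted p = 0.128), so the breed difference of PSMC1 rests on 1 probe.

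PSMD12, a scaffold of the lid, ran from 8.80 to 9.42 in LW and from 9.10 to 9.53 in Creole (median 9.46), and all 9 LW arrays lay below the Creole median. The difference was -0.29 ± 0.07 (SE, adjusted p = 0.00626), and its other probe was called in the same direction.

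PSMB3, a non-catalytic beta subunit (chromosome 12, 23347060 to 23357616), had the largest difference. Its levels ran from 9.65 to 10.43 in LW (median 9.96), from 9.80 to 11.27 in Creole (median 10.54) and from 9.58 to 10.99 in F1 (median 10.15). The breeds overlapped, and the difference was -0.59 ± 0.19 (SE, adjusted p = 0.0414), with its other probe also called. PSMB3 was also the gene with the second widest spread within groups (standard deviation 0.44). Its call was lost when any of 12 single arrays was left out, with the slide as a fixed block and without the filter.

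PSMD14, the gene with the largest fall in HS, was lower in LW too, with a median of 10.86 against 11.505 in Creole, a difference of -0.41 ± 0.14 (SE, adjusted p = 0.0422). All 3 of its probes, which read 2 separate stretches, were called. The call of PSMD14 was lost when any of 13 single arrays was left out. It was also lost with the slide as a fixed block, with normexp background correction and without the filter. PSMD9, a chaperone of cap assembly that its symbol placed among the regulatory subunits, was the gene higher in LW. Its levels ran from 11.95 to 12.27 in LW and from 11.68 to 12.08 in Creole, with a difference of 0.21 ± 0.06 (SE, adjusted p = 0.0326). Of its 2 other probes 1 was called, and the call of PSMD9 was lost with the signal scaled to the 75th percentile and with 7 of the 26 single arrays left out.

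**Figure D5:**
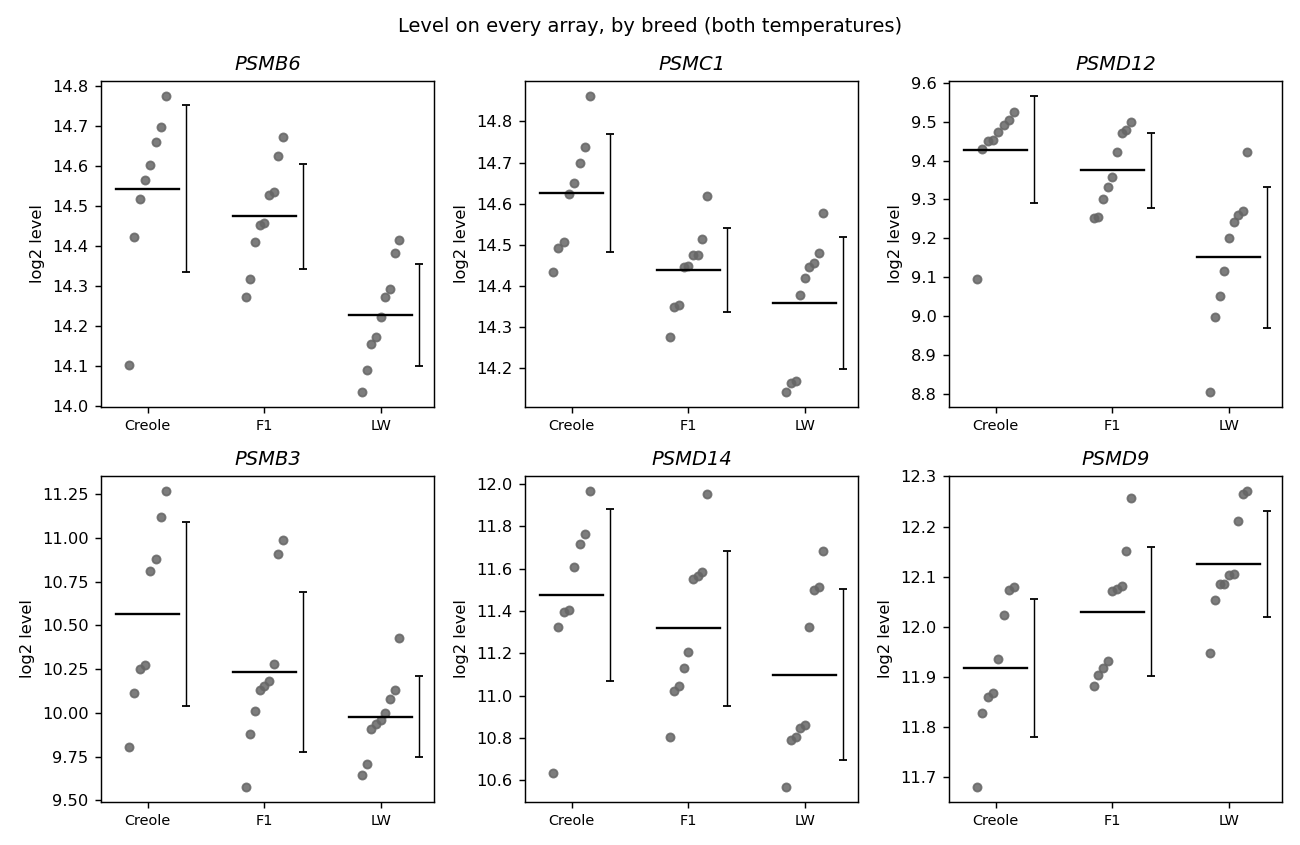
Log2 level (vertical axis) of 6 subunit genes on every array by breed, with both temperatures together (horizontal axis; points spread sideways for visibility; horizontal lines are means and vertical bars standard deviations). PSMB6, PSMC1, PSMD12, PSMB3 and PSMD14 have their lowest means in LW and PSMD9 has its highest mean in LW.

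The count for LW minus Creole moved with single pigs, to 17 without Creole HS replicate 5 and to 6 or 7 without Creole HS replicate 1, 2, 3 or 4 or LW HS replicate 2, 3 or 4. Over the 3 breeds together, 6 genes were called (14.6%), against 11.8% of all named genes, a share near the background. They were PSMB6, PSMC1 and PSMD12, with adjusted p-values of 0.00515, 0.00543 and 0.0124, and PSMA3, PSMB5 and PSMD2. The calls of PSMA3 and PSMD2 were lost with 13 and 17, respectively, of the 26 single arrays left out. Both were also lost with the slide as a fixed block, and the calls of PSMA3, PSMB5 and PSMC1 with the mean over probes. Without Creole HS replicate 5 the count over the 3 breeds was 15.

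The F1 pigs were compared with the mean of both parent breeds. By limma 0 of 41 genes were called, with 2 at an unadjusted p-value under 0.05 (against 8.69% of all tested probes), and 0.0% of all named genes. PSMB5 had the smallest p-value, with a difference of 0.15 (adjusted p = 0.464).

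Among the partners of the proteasome, 4 of 31 genes tested were called (12.9%), a share near the 12.6% of all named genes. Of 8 assembly factors tested, AKIRIN2, which is known to bring proteasomes into the nucleus, fell by 0.34 on the log2 scale (adjusted p = 0.0498), and PSMG2, a chaperone of the alpha ring, fell by 0.32 (adjusted p = 0.00511). Of 9 associated proteins, UCHL5, a deubiquitinase bound to the cap, was the one called (-0.34 ± 0.05 SE, adjusted p = 0.000439), with 15 of 15 HS arrays below the TN mean of their breed. Of 8 genes of the transcriptional control of the subunits by NFE2L1, VCP was called (-0.15, adjusted p = 0.0468). Of 6 ubiquitin and activating-enzyme genes 0 were called, with 1 at an unadjusted p-value under 0.05, against 26.9% of all tested probes.

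Among genes that work beside the immunoproteasome, positive changes were seen for 5 of 9 genes of peptide loading and 10 of 20 interferon-induced genes. Of 9 genes of peptide loading, CALR, a chaperone of the endoplasmic reticulum, rose (0.17, adjusted p = 0.0229) and CANX, another, fell (-0.15, adjusted p = 0.0478). Of 20 interferon-induced genes GBP1 was called (-0.50, adjusted p = 0.0248), and the median change of the list was 0.00. Of all named genes 12.6% were called. In a separate list, of 4 genes of muscle ubiquitin ligases and autophagy tested, 0 were called and 3 had positive changes (median 0.23). An unadjusted p-value under 0.05 was seen for 2 of these 4, against 26.9% of all tested probes.

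Markers of other cells moved beside the subunits in HS. Of 9 proliferation genes tested, 6 fell and 0 rose, with CDK1 at 0.502 times the TN level (adjusted p = 0.000296) and log2 changes of CCNB1 at -0.97, TOP2A at -0.95 and RRM2 at -0.90, and the score of the list ran from -0.06 to 0.77 in TN and from -0.74 to 0.30 in HS. Of 8 fibroblast markers 5 rose, with COL1A1, COL1A2, DCN and PI16 between 0.31 and 0.66, and the score ran from -0.95 to 0.25 in TN and from -0.22 to 0.60 in HS. Of 8 adipocyte markers, all tested, CIDEA fell (-0.43) and ADIPOQ rose (0.16), and of 7 endothelial markers CDH5 (-0.23) and FLT1 (-0.22) fell. Of 10 macrophage, 8 T cell, 5 B cell, 6 NK cell, 10 muscle and 2 keratinocyte markers tested, 0 were called. Positive changes were seen for 9 macrophage (median 0.14), 4 T cell, 4 B cell, 5 NK cell, 10 muscle (median 0.53) and 2 keratinocyte markers. The part of these cell types in the change of the subunits was not tested.

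Of 8 red cell markers 5 were tested, and HBB, a haemoglobin chain, was the one called (-0.85 ± 0.21 SE, adjusted p = 0.0110). AHSP (-0.47) and HEMGN (-0.11) had negative changes, and ALAS2 (0.04) and SLC4A1 (0.06) positive ones, none of which passed. The score of the list ran from -0.09 to 0.46 in TN and from -0.58 to 0.32 in HS. With this score as a covariate, the 4 subunit genes called were PSMA1, PSMB5, PSMC2 and PSME4, while the median change was -0.15 for the core and -0.14 for the regulatory subunits. Over all tested probes the number of calls went from 5447 to 912 in the same fit.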

How the data were processed

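RNA of back fat from 26 pigs was hybridised to 26 single-colour porcine arrays, on which 41314 to 46185 spots were well above background. Each scanner file, as deposited, gives a spot's median, mean, background and processed intensity, extracted with Feature Extraction 10.10.1.1 and not normalized between arrays. Other deposited columns are flags of the software (spots well above background, saturated, non-uniform), which have no unit. A value table from the authors covers 44104 probes on the log2 scale, made from quantile-normalized medians, and its values differed from those computed here by a median of at most 0.00906 on any array. The rule that kept these probes is not given in the sources used here.

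Here the medians, with no background correction, were quantile-normalized, non-uniform spots were set to missing and replicate spots averaged. Linear models were fitted with limma 3.58.1 (lmFit, eBayes with trend) in R 4.3.3 to 44703 probes (those that 8 or more arrays measured well above background), with breed and temperature as fixed effects, or 6 group means for changes within breeds and the interaction. The model of the study also holds random effects of pen, day of slaughter, father and mother, which the labels do not give. The p-values were adjusted by Benjamini-Hochberg over all tested probes (threshold 0.05). The fit was tested on simulated data.

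Genes were named from accessions, gene IDs and symbols through a RefSeq table of the pig assembly Sscrofa11.1, whose coordinates are given. Of 10328 named genes tested, each was read by its brightest probe. The genes given in full are all 5 immunoproteasome genes, the 8 core and regulatory genes with the largest called changes in HS, the 5 with the largest called differences between LW and Creole, up to 3 genes by p-value in the other comparisons (the first where none was called) and up to 4 called genes per list. Members, lists and rules were chosen with earlier results of these data known. The catalytic pairs, the correlations and the gap in PSMB8 were examined after the values were seen. Alternatives were another scaling, normexp (offset 50), other filters, the deposited matrix, slide as a fixed or random block, array weights, the mean over probes, no breed term, the red cell score and each array left out. The number of arrays limits the precision.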

Additional observations from a re-analysis of the deposited data

Results flagged for a closer look

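In the groups of 4 or 5 arrays, 105 sets of values (3 class scores and 18 named genes) were examined for an array far from the others of its group, of which chance gives about 1 in 20, and 7 held one. Creole HS replicate 5 was the lowest of its group for PSMA5, at 11.53 against 12.07 to 12.25 in the others, for PSMC4, at 10.61 against 11.18 to 11.29, and for PSMD12, at 9.10 (9.095) against 9.43 to 9.49. Without the same array the calls for LW minus Creole went from 11 to 17, and those for any breed difference from 6 to 15. In LW HS, replicate 1 had the highest core score, at -0.09 (-0.094) against -0.23 to -0.21, and replicate 2 the lowest level of PSMD14, at 10.57 (10.568) against 10.79 to 10.86. LW TN replicate 4 had the highest level of PSME1, at 12.64 against 12.35 to 12.38, and F1 TN replicate 4 the lowest level of PSMD12, at 9.25 (9.254) against 9.47 to 9.50. Since the same pigs are read by all genes, these values are not independent of each other.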

How the results depend on the processing

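In place of 18 subunit genes, 15 to 20 were called in HS with any 1 array left out, and the median changes were -0.1973 to -0.1622 (core), -0.161 to -0.1309 (regulatory) and -0.1011 to -0.04243 (immunoproteasome). Left-out arrays gave 6 to 17 calls for LW minus Creole, 4 to 15 for any breed difference, 0 to 1 in Creole, 0 to 2 in F1, 1 to 12 in LW, and 0 for the interaction and for F1 against the parents. With the 75th percentile scaling the medians were -0.29 (core) and -0.2286 (regulatory), with 10 calls for any breed difference and 11 in LW. Without the filter there were 0 calls in F1 and 3 in LW. With the slide as a fixed block there were 7 calls for LW minus Creole, 0 in F1 and 1 in LW, which is none of the 6. Array weights gave 2 in F1 and 10 in LW, and the mean over probes 0 in F1. The red cell score as a covariate gave 4 calls for HS. The change of PSME1 turned to 0.0090 with that covariate, and that of PSMB8 ran from -0.1932 to 0.0005701 with single arrays left out, the last without Creole TN replicate 1. Neither was called before or after. In Creole, the 1 call appeared without Creole HS replicate 3. The cause of these shifts was not tested. No paired analysis was possible because the labels give no replicate numbers shared by the groups. Signal over background limited PSMD5 and 6 probes of other subunits.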
